A study of Mus musculus with 4 samples.

Results

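Autophagy and mitophagy genes were described in gastrocnemius muscle, a calf muscle of the mouse, in 4 libraries of 3′ mRNA sequencing. The genes were chosen by symbol as parts of the known autophagy machinery. Earlier results of these data were known at that point, so shares set beside those of all genes only describe the list. All 41 of them were found, each in 1 of the 23282 gene rows of the deposited data. The study crossed treadmill exercise (E) with a tumor (T), and each combination had 1 library. All mice were males of the CDF1 strain, and the labels give postnatal day 28 for every group. The study's text gives that age for the purchase of the mice, and muscle was taken later, at the end of the experiment. Normal control (E-T-) had neither exercise nor tumor, and normal exercise (E+T-) ran on the treadmill without a tumor. Cancer control (E-T+) received CT26 cells, a mouse colon carcinoma line, through the tail vein and stayed sedentary, and cancer exercise (E+T+) received the cells and ran. The labels speak of 10 mice per group and the study's text of a single representative mouse, so whether a library pools animals was not settled. No difference below has a replicate check, and no p-value is given.

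Autophagy encloses cytoplasm, protein aggregates or organelles in a double membrane, the autophagosome, which fuses with the lysosome. A kinase complex around ULK1 starts the process, a class III PI3-kinase marks the membrane, and ubiquitin-like conjugation attaches the small ATG8 proteins to lipid, where they bind receptors that carry cargo. Mitophagy is the same route for mitochondria. In skeletal muscle, autophagy is known to rise in fasting and wasting, where it clears protein and organelles beside the proteasome, and it is also known to respond to exercise.

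The libraries held from 10647484 to 13226089 reads as rebuilt from the deposited values, and reads were found for 14427 to 14830 genes. A share of 3 reads, the floor of detection, was at most 2.82e-05% of a library. All 9 skeletal muscle markers, among them Acta1 and Ckm, had reads in every library, with a summed normalized read count from 676046 to 1180111. Markers of other cells moved between the libraries too. The red cell markers (8 of 10 in the files) summed to 51513 in normal exercise and to 504624 in cancer exercise, and Rhag had no reads anywhere. The neutrophil markers (7 of 8 in the files) summed to 68.3 and 152 without a tumor and to 2623 and 1858 with it, and Elane had no reads. The macrophage markers (8 of 9 in the files) summed to 3719 and 3706 without and to 6598 and 5616 with a tumor. Only 4 of those 8 were higher in cancer control than in normal control, Cd68 (log2 3.45), C1qa (1.23), C1qc (1.16) and C1qb (0.49), and the other 4 were lower. The 7 fibroblast markers summed to 94428 in normal control against 36907 to 44637 elsewhere. The 6 fat markers ranged from 12507 in cancer control to 37807 in normal control, and the 5 endothelial markers from 2543 to 3279. The part of these cells in the results below was not tested. In bulk tissue, fewer cells of a type and less RNA per cell cannot be told apart.

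The autophagy genes took the largest share of reads in cancer control. Together they made up 0.802% of the reads there (95% Wilson interval 0.797 to 0.808) and 0.466% in cancer exercise (0.462 to 0.470), against 0.285% (0.282 to 0.288) for normal control and 0.341% (0.338 to 0.345) for normal exercise. These and all later intervals cover counting error only. The summed share rests largely on a few abundant genes. From normal control to cancer control, member reads went from 32141 to 85438. Among them, Sqstm1 went from 3580 to 18422, Bnip3 from 2462 to 15544, Map1lc3b from 2805 to 9961 and Gabarapl1 from 736 to 7186. Of the 41 genes, 12 had a log2 fold change below 0 in that comparison. Cancer control was the highest of the 4 libraries for 25 of the 41 genes, or 61.0%, against 31.6% of all genes that reached a normalized read count of 4 in any library. Normal exercise was highest for 9 members, or 22.0% (22.8% of all genes), normal control for 4, or 9.76% (27.1%), and cancer exercise for 3, or 7.32% (18.5%). Reads come from the 3′ ends of transcripts, so a read count does not scale with transcript length and levels of different genes could be set side by side. The most abundant members were Sqstm1, Bnip3, Map1lc3b, Gabarapl1 and Pink1 in cancer control, and the lowest were Atg4c and Atg4a. The fewest reads of a member in a library were 18, for Atg4c. Where 4 values follow each other below, they are normalized read counts in the order E-T-, E+T-, E-T+ and E+T+.

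**Figure D1:**
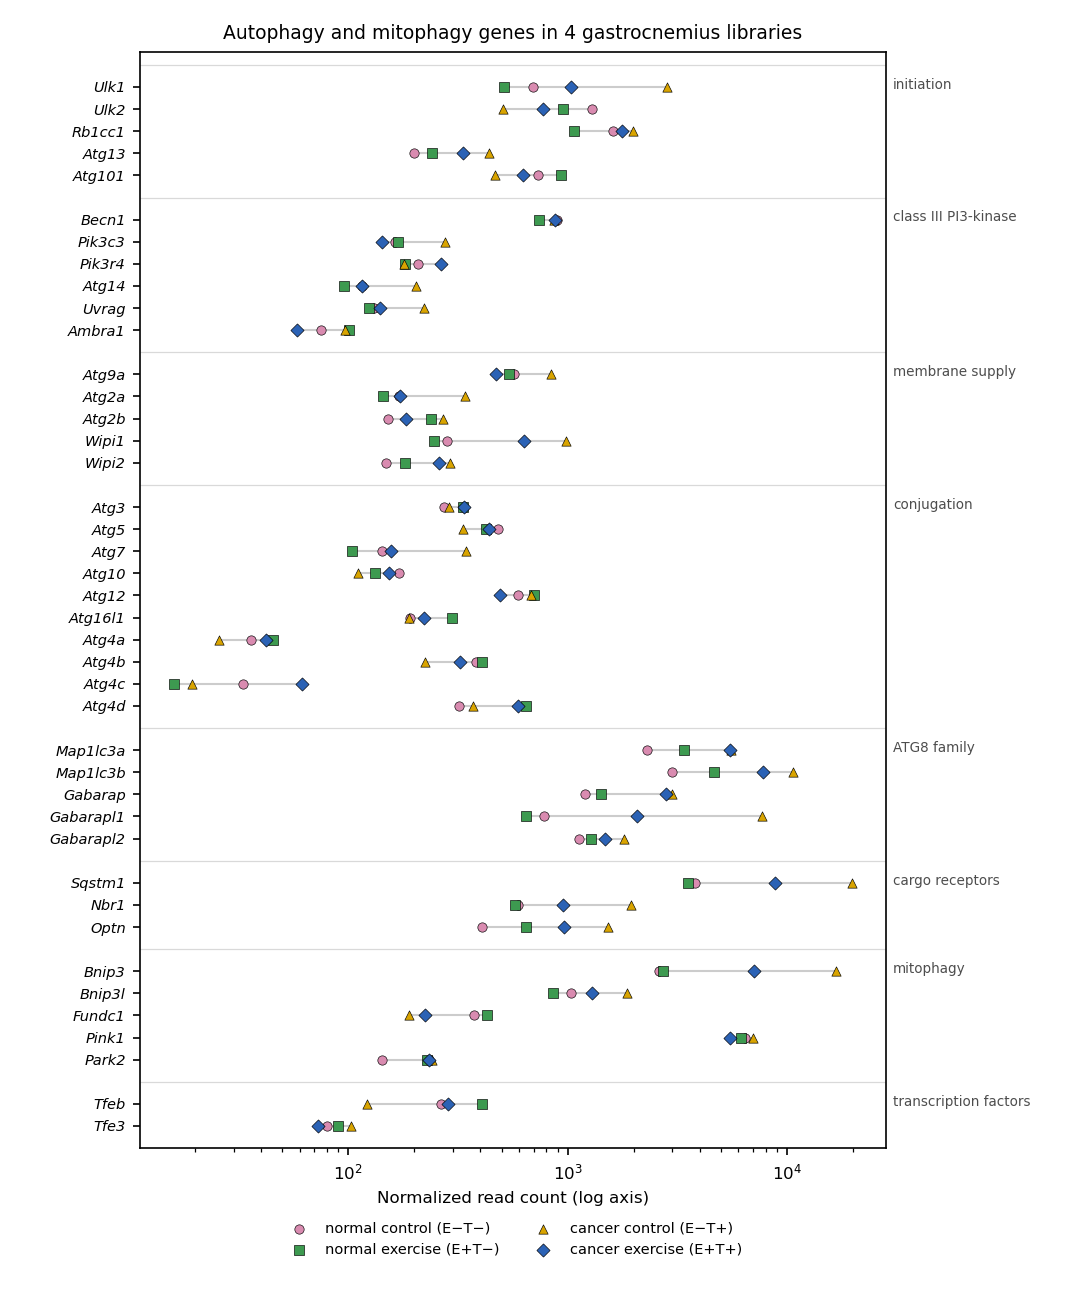
Normalized read count (log axis) of the 41 autophagy and mitophagy genes, grouped by role, with 1 point for each of the 4 libraries and no error bar. Cancer control lies to the right of the other libraries for Gabarapl1, Sqstm1, Bnip3 and Ulk1, and to their left for Ulk2 and Tfeb.

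A gene was counted as higher or lower when its normalized read count, with 1 added, differed at least 2-fold and reached at least 4 in 1 of the compared libraries. The first comparison, cancer control against normal control, asked how muscle of tumor-bearing mice differed from that of tumor-free mice when both were sedentary. Of the 41 genes, all of which reached the minimum, 12 were higher (29.3%) and 2 were lower (4.88%). The background over 14818 genes was 20.9% higher and 24.2% lower. The higher genes were Ulk1, Atg13, Wipi1, Atg7, Map1lc3a, Map1lc3b, Gabarap, Gabarapl1, Sqstm1, Nbr1, Optn and Bnip3, and the lower genes were Ulk2 and Tfeb. The share of higher members was thus somewhat above the background and that of lower members well below it. Most members were abundant, and with a minimum of 100 in place of 4, chosen after seeing the data, 12 of 38 members (31.6%) were higher and 2 lower (5.26%), against a background of 17.4% and 17.7%. The median log2 fold change was 0.69 over the members and -0.04 over all genes.

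In tumor-bearing mice, exercise was read from cancer exercise against cancer control. Here 6 genes were lower (14.6%), namely Ulk1, Atg7, Gabarapl1, Sqstm1, Nbr1 and Bnip3, and 2 were higher (4.88%), Atg4c and Tfeb. The background was 15.1% lower and 15.6% higher over 14491 genes, so the share of lower members was near the background and that of higher members below it. With the minimum of 100, 6 of 38 members (15.8%) were lower and 1 was higher (2.63%), against 7.0% and 8.03%, so the reading of the lower share depends on the minimum. The median was -0.36 over the members and 0.01 over all genes. This comparison shares cancer control with the one above, and the library enters them with opposite signs.

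Without a tumor, normal exercise against normal control, no member passed the threshold in either direction. The background was 9.44% higher and 12.1% lower over 14518 genes, and 2.67% and 3.61% with the minimum of 100. The members' log2 fold changes ran from -0.991 for Atg4c to 0.999 for Atg4d, both just short of the threshold, with a median of 0.05 against -0.01 over all genes. In exercised mice, cancer exercise against normal exercise, 6 genes were higher (14.6%) and 0 were lower, against a background of 13.9% and 16.3% over 14470 genes. With the minimum of 100, 5 of 38 (13.2%) were higher and 0 lower, against 8.87% and 8.28%. The share of higher members was thus near the background at the minimum of 4 and above it at 100, and that of lower members was below it at both. Under total count scaling 5 were higher and 1 was lower, against 11.7% and 19.3% of all genes. The higher genes were Ulk1, Wipi1, Atg4c, Gabarapl1, Sqstm1 and Bnip3, and the median was 0.22 against -0.03.

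The comparisons of tumor with no tumor, in sedentary and in exercised mice, share no library. They had 5 higher genes in common, Ulk1, Wipi1, Gabarapl1, Sqstm1 and Bnip3, which are 5 of the 12 in sedentary (41.7%) and 5 of the 6 in exercised mice (83.3%). Over all genes the 953 shared were 30.8% of the higher genes in sedentary and 47.3% of those in exercised mice. With the minimum of 100, the shares were 41.7% and 100% for the members, against 30.6% and 61.4% for all genes. The difference with tumor was smaller in size in exercised mice for 33 of the 41 genes (80.5%), against 63.3% of all genes, and it had the same sign for 28 of them, against 65.6% of all genes. The comparisons of exercise with no exercise also share no library. There 21 of the 41 genes had the same sign, against 48.6% of all genes, and no gene passed the threshold in both.

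**Figure D2:**
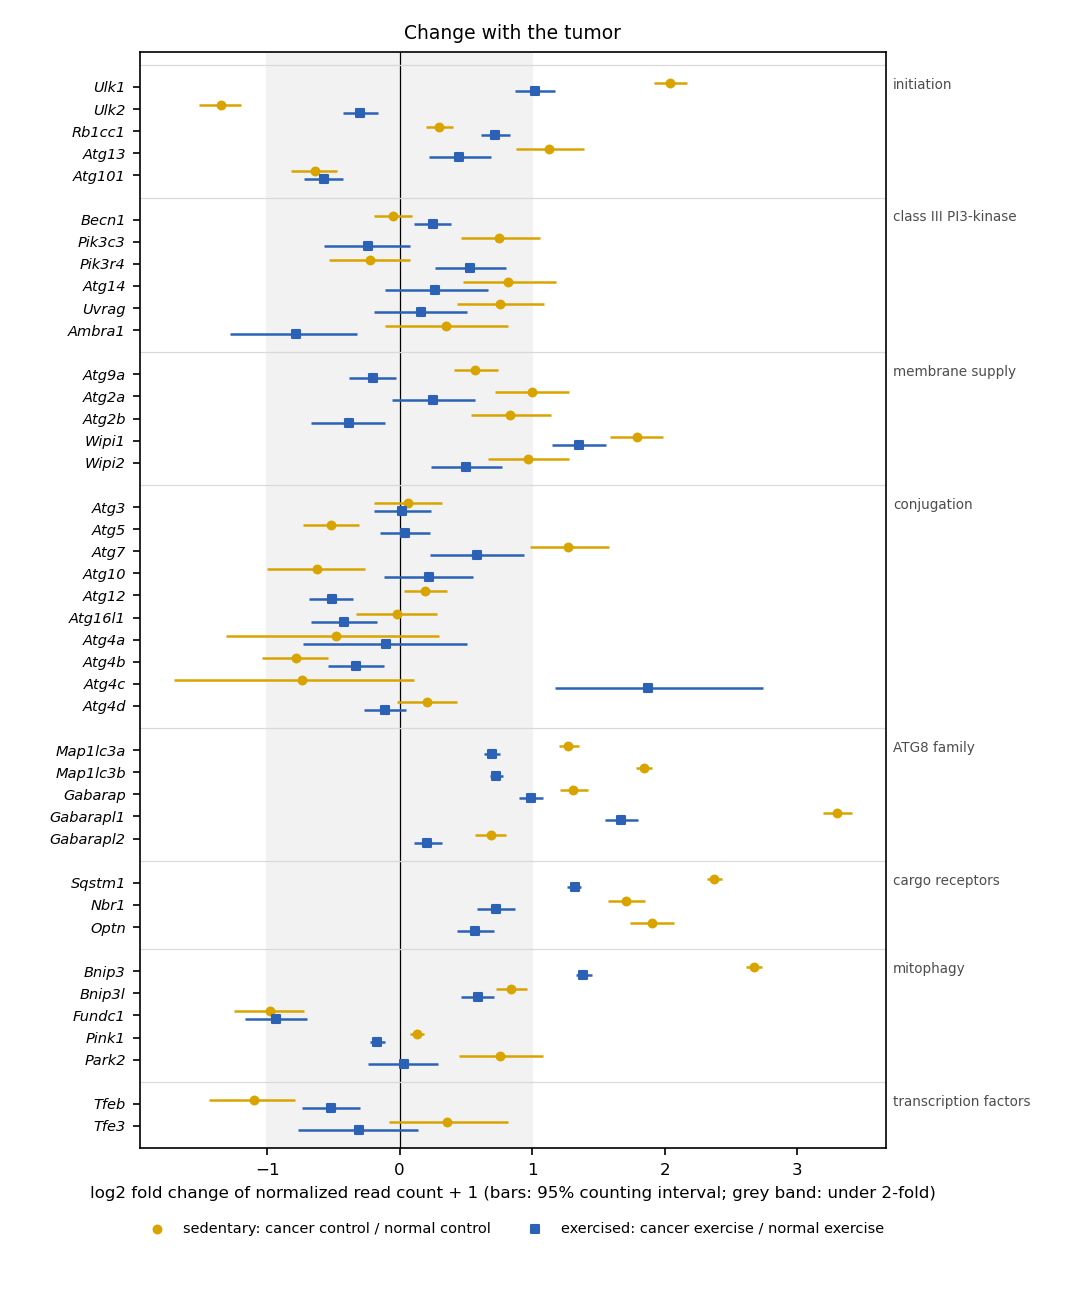
Log2 fold change with tumor for each of the 41 genes, in sedentary mice (cancer control over normal control) and in exercised mice (cancer exercise over normal exercise). Bars are 95% counting intervals of 1 library against 1, and the grey band holds changes under 2-fold; 12 genes lie above the band in sedentary and 6 in exercised mice.

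Promoter sequences were read for Gabarapl1, Bnip3, Sqstm1 and Ulk1, the 4 members with the largest fold in the sedentary tumor comparison, chosen after these values were seen. They are shown so that the start regions of genes that were higher in both tumor libraries can be read side by side. The stretches run from 250 to 51 bases before the RefSeq transcription start, in GRCm38.p6, 5′ to 3′ on the strand of the gene, and come from RefSeq. Capitals mark a match to a searched motif.
Gabarapl1 (chr6:129532942-129533141, plus strand): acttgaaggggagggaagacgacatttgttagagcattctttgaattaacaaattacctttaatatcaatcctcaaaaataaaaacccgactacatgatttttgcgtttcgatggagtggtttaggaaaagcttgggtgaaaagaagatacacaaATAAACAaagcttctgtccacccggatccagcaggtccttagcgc
Bnip3 (chr7:138909557-138909756, minus strand): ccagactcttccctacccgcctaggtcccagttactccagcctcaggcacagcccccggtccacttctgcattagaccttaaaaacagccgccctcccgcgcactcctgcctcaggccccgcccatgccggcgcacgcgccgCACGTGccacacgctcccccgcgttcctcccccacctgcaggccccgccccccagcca
Sqstm1 (chr11:50210871-50211070, minus strand): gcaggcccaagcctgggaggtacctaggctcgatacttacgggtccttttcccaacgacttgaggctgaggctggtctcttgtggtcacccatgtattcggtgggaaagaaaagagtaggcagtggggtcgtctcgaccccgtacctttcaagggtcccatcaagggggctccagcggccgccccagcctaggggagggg
Ulk1 (chr5:110810132-110810331, minus strand): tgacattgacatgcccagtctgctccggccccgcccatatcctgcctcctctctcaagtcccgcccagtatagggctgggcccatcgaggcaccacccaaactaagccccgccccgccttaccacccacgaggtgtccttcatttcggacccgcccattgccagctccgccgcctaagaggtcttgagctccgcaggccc
The capitals in the Gabarapl1 stretch are ATAAACA, a letter variant of the forkhead motif that FOXO factors bind, and those in the Bnip3 stretch are CACGTG, the E-box letters bound by TFEB and TFE3. The other stretches hold none of the motifs searched. Windows of 300 bases, 250 before and 50 after the start, were searched on both strands for 33 of the 41 members with a RefSeq entry. CACGTG was found for 5 of them (Atg14, Atg3, Atg5, Atg7 and Bnip3), against 11.1% of all 11596 genes at the minimum with an entry. ATAAACA was found for 4 (Ambra1, Wipi2, Atg4a and Gabarapl1), against 3.35% of genes, and GTAAACA for 0, against 3.23%. ACGTG, the core of the hypoxia response element, which overlaps CACGTG, was found for 15, against 27.6% of genes. A match describes letters only.

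Among the initiation genes, the kinases Ulk1 and Ulk2 went opposite ways with tumor in sedentary mice. Ulk1, the kinase that starts autophagy, was counted at 693 (E-T-), 511 (E+T-), 2848 (E-T+) and 1037 (E+T+). It was highest in cancer control and above both tumor-free libraries in cancer exercise as well. Against normal control the tumor library was 4.11-fold higher (log2 2.04, 95% counting interval 1.92 to 2.17), and cancer exercise against cancer control was 2.75-fold lower (log2 -1.46, -1.57 to -1.35). In exercised mice the tumor difference, at log2 1.02 (0.87 to 1.17), was only just past the threshold, and under total count scaling, at 0.86, it was not. Ulk2, its close relative, had 1289, 948, 505 and 771, lowest in cancer control at log2 -1.35 (-1.51 to -1.20) against normal control. A share within the pair does not depend on the scaling of libraries. Ulk1 took 84.9% of the reads of the pair in cancer control (83.6 to 86.1) and 57.3% in cancer exercise (55 to 59.7), against 34.9% and 35.1% in the libraries without a tumor.

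The other initiation genes code for partners of the kinase. Atg13, its regulatory subunit, had 200, 242, 438 and 332. It was highest in cancer control, at log2 1.13 (0.88 to 1.39) against normal control. Rb1cc1, which codes for the scaffold FIP200, and Atg101, which stabilizes ATG13, stayed within 2-fold in all 4 comparisons.

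None of the 6 genes of the class III PI3-kinase complexes passed the threshold in any comparison as reported. They code for the lipid kinase itself (Pik3c3), its partners (Becn1, Pik3r4), the subunits that direct it to autophagosomes or endosomes (Atg14, Uvrag) and a regulator (Ambra1). With tumor in sedentary mice their log2 fold changes ran from -0.22 to 0.82, with a median of 0.55. Pik3c3 came closest to the threshold, at log2 -0.95 (-1.27 to -0.65) for cancer exercise against cancer control, and under total count scaling, at -1.02, it passed. Becn1, the gene most often named for this complex, was nearly level at 892, 738, 863 and 878.

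Among the genes for membrane supply, Wipi1 stood out. Its protein binds the lipid made by the class III kinase and helps the membrane grow. Wipi1 had 283 (E-T-), 246 (E+T-), 979 (E-T+) and 632 (E+T+). Both tumor libraries were above both tumor-free ones, by log2 1.79 (1.59 to 1.99) in sedentary and 1.35 (1.15 to 1.56) in exercised mice. Atg2a, for a lipid transfer protein, reached 341 in cancer control against 144 to 172 elsewhere, and at log2 0.997 (0.72 to 1.28) it stayed just short of the threshold in sedentary mice. Wipi2 was at log2 0.97 there, also just short. Atg2b, the paralog of Atg2a, and Atg9a, for the membrane protein of the vesicles that seed autophagosomes, stayed within 2-fold throughout.

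Of the 10 conjugation genes, Atg7 and Atg4c passed the threshold in some comparison. Atg7, which codes for the enzyme that activates both ATG12 and the ATG8 proteins, had 143, 104, 345 and 156. It was highest in cancer control and near the tumor-free libraries in cancer exercise. With tumor its log2 fold change was 1.27 (0.98 to 1.58) in sedentary and 0.58 (0.23 to 0.94) in exercised mice, and exercise in tumor-bearing mice gave -1.14 (-1.44 to -0.86). Atg3, Atg5, Atg10, Atg12 and Atg16l1, which act after ATG7, stayed within 2-fold in every comparison.

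The 4 Atg4 genes code for proteases that prime ATG8 proteins and release them from lipid. Atg4c was rare, with 31, 20, 18 and 57 reads, or normalized read counts of 33 (E-T-), 16.1 (E+T-), 19.3 (E-T+) and 61.6 (E+T+). Cancer exercise was the highest, at log2 1.62 (0.89 to 2.53) against cancer control and 1.87 (1.17 to 2.74) against normal exercise, with wide intervals at this depth. Atg4d had 321 (E-T-), 643 (E+T-), 370.4 (E-T+) and 597 (E+T+), higher in both exercised libraries than in their sedentary ones. Its log2 fold change with exercise was 0.999 (0.81 to 1.2) in tumor-free and 0.69 (0.49 to 0.89) in tumor-bearing mice. Atg4d took 41.5% of the reads of the 4 Atg4 genes in normal control (38.0 to 45.1) and from 57.9% to 58.3% in the other libraries.

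The ATG8 family, the proteins that coat the autophagosome, was higher in cancer control than in normal control for all 5 genes, and 4 of them passed the threshold, all but Gabarapl2. Gabarapl1 differed most. It had 783 (E-T-), 646 (E+T-), 7696 (E-T+) and 2063 (E+T+). Cancer control was 9.82-fold above normal control (log2 3.30, 3.19 to 3.41), the highest fold of any member in any comparison. Cancer exercise lay between, 3.73-fold below cancer control (log2 -1.90, -1.97 to -1.83) and 3.19-fold above normal exercise (log2 1.67, 1.55 to 1.80).

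The LC3 genes were higher with tumor and also, by less than 2-fold, with exercise alone. Map1lc3b had 2983, 4662, 10667 and 7738. Its log2 fold change with exercise was 0.64 (0.58 to 0.71) in tumor-free but -0.46 (-0.51 to -0.42) in tumor-bearing mice, and with tumor it was 1.84 (1.78 to 1.90) in sedentary mice. Map1lc3a had 2297, 3386, 5552 and 5502, so that the tumor libraries were nearly level, at log2 -0.01 (-0.07 to 0.04).

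Gabarap had 1202, 1417, 2989 and 2814 and was also close in the tumor libraries. Its tumor difference was log2 1.31 (1.21 to 1.42) in sedentary mice and 0.99 (0.90 to 1.08) in exercised mice. Gabarapl2 had 1127, 1283, 1814 and 1486 and stayed within 2-fold. The make-up of the family shifted: Gabarapl1 took 26.8% of its reads in cancer control (26.3 to 27.3) and 10.5% in cancer exercise (10.1 to 11), against 9.33% for normal control (8.71 to 9.99) and 5.67% for normal exercise (5.30 to 6.07). Map1lc3b took the largest share in each library, from 35.6% to 40.9%. How the authors counted reads that match several genes is not given in the sources used here, so close relatives and pseudogene copies in this family are a source of uncertainty.

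**Figure D3:**
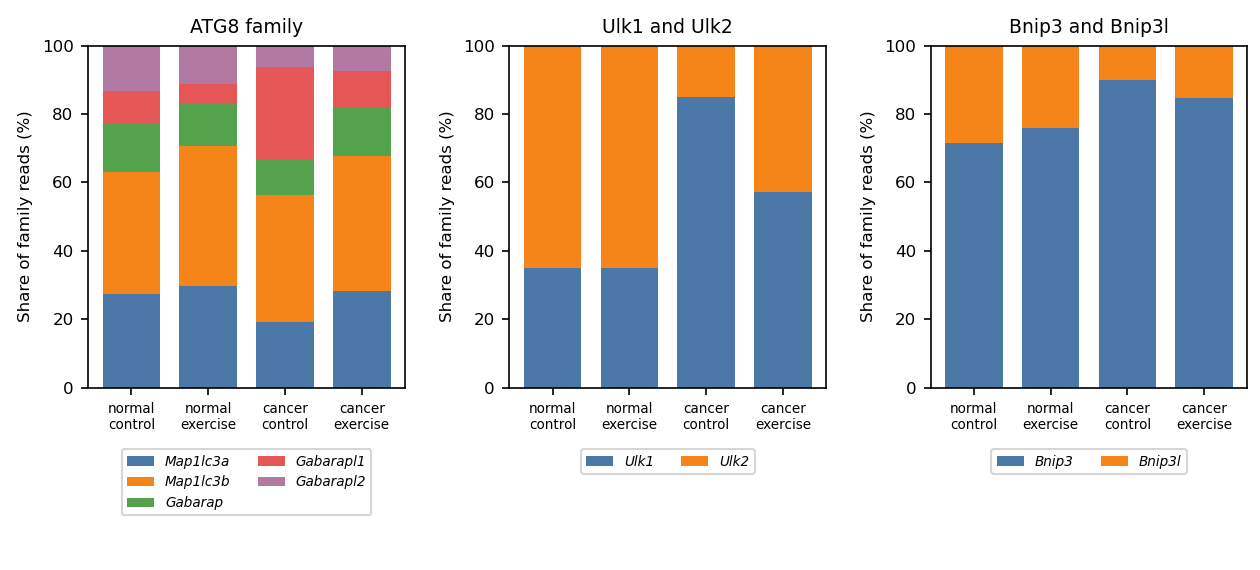
Share of the family's reads (percent, stacked bars without error bars) taken by each ATG8 gene, by Ulk1 and Ulk2, and by Bnip3 and Bnip3l in the 4 libraries. The share of Gabarapl1 among ATG8 reads is 26.8% in cancer control and at most 10.5% elsewhere, and that of Ulk1 in its pair is 84.9% in cancer control.

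The 3 cargo receptors, which tie ubiquitin-marked cargo to ATG8 proteins, were all higher in cancer control. Sqstm1, which codes for p62, had 3807 (E-T-), 3552 (E+T-), 19728 (E-T+) and 8846 (E+T+). It was the most abundant member in both tumor libraries. The tumor difference was log2 2.37 (2.32 to 2.43) in sedentary and 1.32 (1.26 to 1.37) in exercised mice, and cancer exercise against cancer control gave -1.16 (-1.19 to -1.12).

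Nbr1, a receptor related to p62, had 597, 578, 1951 and 957. It was level in the tumor-free libraries and higher in both tumor libraries, at log2 1.71 (1.57 to 1.85) in sedentary mice. With exercise in tumor-bearing mice it was at -1.03 (-1.14 to -0.91), just past the threshold. Optn, the gene of optineurin, which also serves mitophagy, had 406, 649, 1521 and 962. Its difference with exercise was log2 0.68 (0.50 to 0.86) without a tumor and -0.66 (-0.78 to -0.54) with one. Its difference with tumor was 1.90 (1.74 to 2.07) in sedentary mice.

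Among the mitophagy genes, the receptor Bnip3 and the PINK1 and parkin genes gave different pictures. Bnip3, an outer mitochondrial membrane receptor that binds ATG8 proteins directly, had 2618 (E-T-), 2713 (E+T-), 16646 (E-T+) and 7086 (E+T+). Cancer control was 6.36-fold above normal control (log2 2.67, 2.61 to 2.73) and cancer exercise was lower than cancer control, at log2 -1.23 (-1.27 to -1.19). In exercised mice the tumor library was still higher, at log2 1.38 (1.33 to 1.45). Bnip3l, the related receptor NIX, had 1039, 857, 1864 and 1285 and stayed within 2-fold. Bnip3 took 71.6% of the reads of this pair in normal control and 89.9% in cancer control (89.5 to 90.4).

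Pink1, for the kinase that marks damaged mitochondria, was nearly level at 6413, 6147, 7023 and 5479, and it was the most abundant member in both tumor-free libraries. Park2, for the ubiquitin ligase parkin that acts with PINK1, had 142 in normal control and 229 to 239.9 in the others. Fundc1, an outer membrane receptor, was lower in both tumor libraries, with 375 and 427 without a tumor against 189.5 and 223 with it. At log2 -0.98 (-1.25 to -0.72) in sedentary and -0.93 (-1.17 to -0.70) in exercised mice it stayed just short of the threshold.

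Tfeb and Tfe3 code for transcription factors that switch on genes of autophagy and lysosomes and are mostly controlled by their location in the cell. Tfeb had 264 (E-T-), 409 (E+T-), 122 (E-T+) and 286 (E+T+). It was lowest in cancer control, where most of the other members were highest. Its log2 fold change was -1.10 (-1.44 to -0.79) with tumor in sedentary mice. Exercise in tumor-bearing mice gave 1.22 (0.91 to 1.56). Tfe3 was low, at 79.8, 89.9, 103 and 72.6, and stayed within 2-fold.

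**Figure D4:**
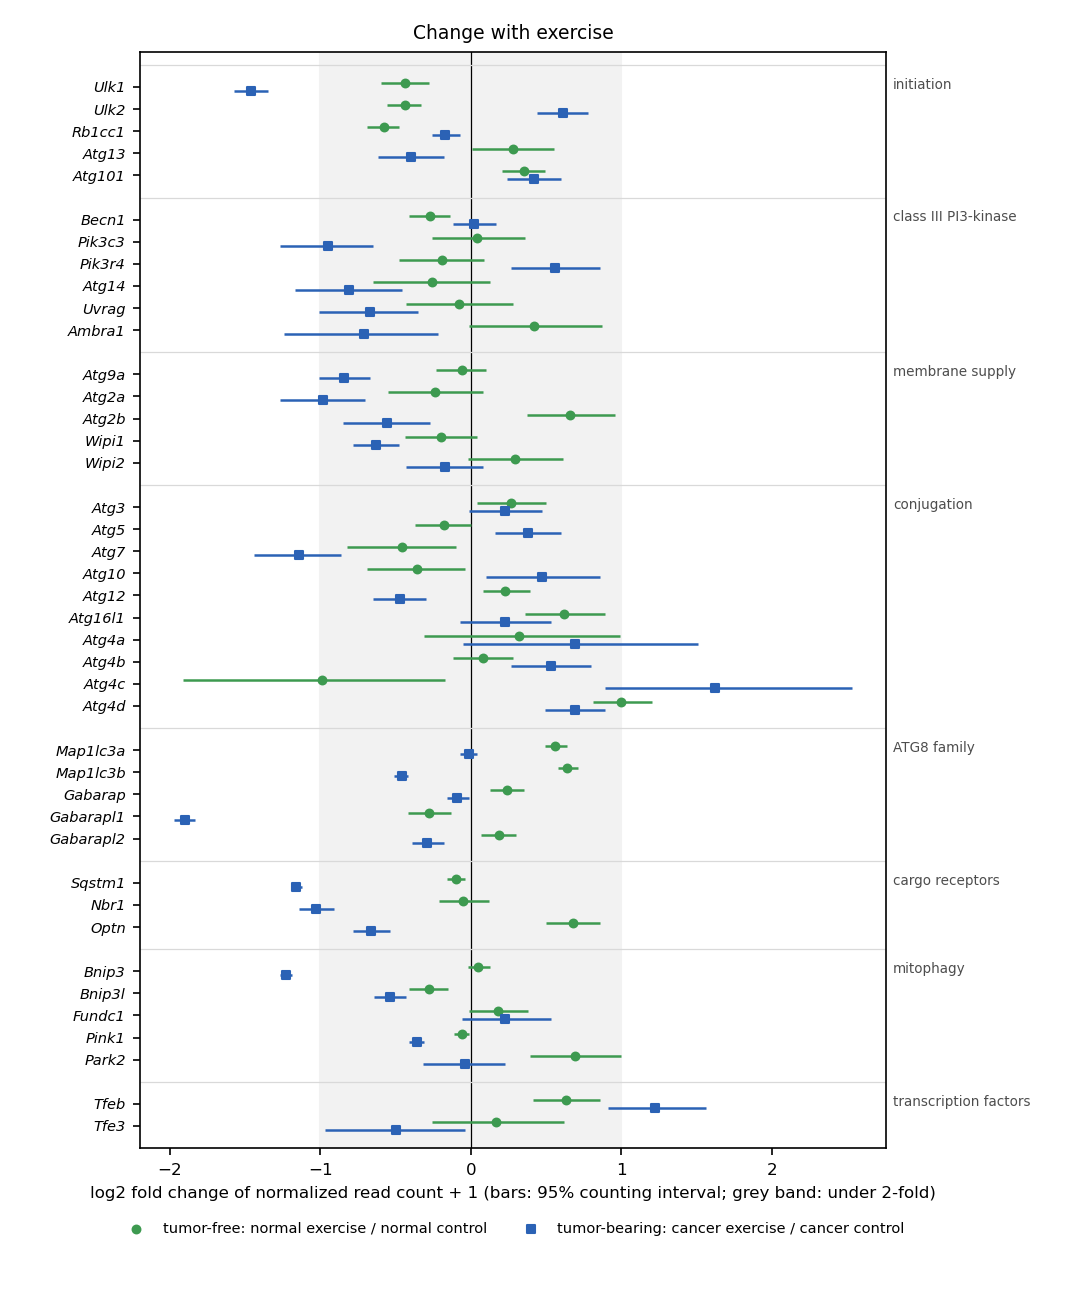
Log2 fold change with exercise for each of the 41 genes, in tumor-free mice (normal exercise over normal control) and in tumor-bearing mice (cancer exercise over cancer control), with 95% counting intervals of 1 library against 1. No tumor-free point lies outside the grey band of under 2-fold, and Gabarapl1 in tumor-bearing mice lies farthest below it.

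Further genes of the pathway were taken from a list of 49 symbols, of which 45 were in the files. This list too was chosen with earlier results of these data known. With tumor in sedentary mice 18 of the 45 were higher (40%, against 20.9% of all genes) and 1 was lower (2.22%, against 24.2%). In exercised mice 10 were higher (22.2%, against 13.9%) and 2 lower (4.44%, against 16.3%). With exercise in tumor-bearing mice 1 was higher (2.22%, against 15.6%) and 7 were lower (15.6%, against 15.1%). Without a tumor 3 were higher (6.82%, against 9.44%) and 2 lower (4.55%, against 12.1%) of the 44 that reached the minimum. Foxo3 and Tfec, which are among the genes counted, had at most 13 reads in any library. Fam134b, the endoplasmic reticulum autophagy receptor, had 1957 (E-T-), 1310.5 (E+T-), 33829 (E-T+) and 23073 (E+T+), at log2 4.11 (4.04 to 4.18) with tumor in sedentary mice. Calcoco1, another receptor, had 899, 698, 6974 and 2573. Both receptors were far above their tumor-free levels in the 2 tumor libraries.

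Regulators of the pathway were among the same list. Ddit4, an inhibitor of mTOR signalling, had 359.5, 380.1, 17486 and 7874, and Sesn1, which also restrains mTOR, had 140.4, 132, 3627 and 1312. Mtor itself was also higher with tumor, with 235, 285, 583 and 607. Its log2 fold change was 1.31 in sedentary and 1.09 in exercised mice. Usp30 had 47.9, 21.7, 141 and 82.3, at log2 1.54 and 1.87 with tumor. Foxo1, for a transcription factor of muscle wasting, had 629.8, 513, 3278 and 1499. Trp53inp2, whose protein aids autophagosome formation, was the lower one in sedentary mice, with 2534, 2366, 694 and 854, or log2 -1.87 (-2.0 to -1.74) with tumor. Lysosomal Lamp2 had 2043, 1705, 4207 and 3269, and Lamp1 stayed within 2-fold. For scale, the muscle ubiquitin ligases Trim63 and Fbxo32, which mark protein for the proteasome, differed by log2 3.98 and 3.38 with tumor in sedentary mice.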

How the data were processed

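RNA of gastrocnemius muscle was sequenced with a QuantSeq 3′ kit, 1 library per group. Per the labels and methods, the authors used Bowtie2 for alignment to mm10, bedtools coverage for counts per gene and edgeR for quantile normalization. Deposited values were on a log2 scale, after 1 had been added to each normalized read count. Versions, annotation and the handling of strand, duplicates and multiply matching reads are not given in the sources used here. Differences of the deposited log2 values gave fold changes, which understate the changes of low genes.

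Read numbers were rebuilt by a model of the quantile adjustment with 1 scaling factor per library and a dispersion fitted at 0.339. All values matched a whole number of reads within 0.001 on the log2 scale, with a largest residual of 0.00051, and member counts are uncertain by at most 7 reads. For abundant genes, neighboring whole numbers lie closer together than this tolerance, so a match there was bound to be found. The rebuild was tested on simulated data. These were made with the same model, so the test does not show that the deposited values followed it. Counting intervals are exact binomial (Clopper-Pearson, 95%) bounds for a gene's reads in 2 libraries, scaled by the fitted factors. The gene's own reads in the 2 libraries set their width, and the factors only shift them. Without molecular identifiers, reads need not be independent molecules, and no interval or floor covers more than counting error.

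Groups came from sample titles. The 4 comparisons were described without a test, because each group has 1 library. A call needed a 2-fold difference and a level of 4 or more in 1 library of the pair. Named with values in every library were the called members and all ATG8 family, cargo receptor, mitophagy and transcription factor members. Becn1 and Atg4d were added after their values were seen. Members and lists were chosen with earlier results of these data known. Other scalings, pseudocounts, minimums and folds were tried. Python 3.11.15, numpy 2.4.6, scipy 1.17.1, pandas 2.3.3 and matplotlib 3.10.9 were used.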

Additional observations from a re-analysis of the deposited data

Results flagged for a closer look

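Some members went opposite ways in comparisons of the same kind, with counting intervals on either side of 0. None of these differences was tested, because each arm has 1 library. All signs were kept under every scaling and pseudocount tried. Values are log2 fold changes and their differences, tumor-bearing minus tumor-free for exercise and exercised minus sedentary for tumor. For any gene both differences are the same quantity, so the second listing of Atg2b and Atg12 is not a separate result. Opposite signs were not particular to the members. For exercise 21 of the 41 had the same sign, against 48.6% of all genes, and for tumor 28, against 65.6%. The share of all genes with intervals on either side of 0 is not given here.

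For exercise, members higher without a tumor and lower with one were Atg13 (0.28 and -0.40, difference -0.67), Atg2b (0.66 and -0.56, -1.22), Atg12 (0.23 and -0.47, -0.71), Map1lc3b (0.64 and -0.46, -1.11), Gabarap (0.24 and -0.09, -0.33), Gabarapl2 (0.19 and -0.29, -0.47) and Optn (0.68 and -0.66, -1.34). Members lower without a tumor and higher with one were Ulk2 (-0.44 and 0.61, difference 1.05), Atg10 (-0.36 and 0.47, 0.84) and Atg4c (-0.99 and 1.62, 2.62), the last resting on 18 to 57 reads per library.

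For the tumor, members higher in sedentary and lower in exercised mice were Atg9a (0.57 and -0.20, difference -0.78), Atg2b (0.83 and -0.38, -1.22), Atg12 (0.19 and -0.51, -0.71) and Pink1 (0.13 and -0.17, -0.30).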

How the results depend on the processing

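No paired analysis was possible because each group has 1 library, and no library could be left out for the same reason. Under other scalings, pseudocounts, minimums and fold thresholds, 110 of 129 list values stayed close to those reported and 19 moved. Of 820 single-gene values, 780 stayed close, 40 moved, all under total count scaling, and no called value changed sign. Uncalled values took another sign 13 times, all at log2 0.13 or less in size and under total count or median-of-ratios scaling, among them Sqstm1 (0.06) and Pink1 (0.10) for exercise in tumor-free mice. Total count scaling shifted all log2 fold changes of a comparison by nearly the same amount. The shift was 0.16 for exercise in tumor-free and -0.07 in tumor-bearing mice. For tumor it was 0.07 in sedentary and -0.16 in exercised mice. Which genes counted as moved thus reflects how narrow their counting intervals were, not how far they shifted. Under total count scaling the tumor-free exercise comparison had 1 higher member (11.6% of all genes). The exercised tumor comparison had 1 lower (19.3% of all genes), and Ulk1 dropped below the threshold there, at log2 0.86. Higher members went from 12 to 14 for tumor in sedentary mice (Atg2a and Wipi2 added), while the share over all genes went from 20.9% to 22.1%. Lower members went from 6 to 8 for exercise in tumor-bearing mice (Atg2a and Pik3c3 added), and the share over all genes from 15.1% to 16.2%. Median-of-ratios scaling gave 14 higher (21.5% of all genes) and 7 lower (15.7%) in these comparisons. With exercise in tumor-free mice, median-of-ratios scaling gave 1 higher member (9.52% of all genes). A pseudocount of 0.25 gave 1 higher and 1 lower there (9.79% and 12.5% of all genes).

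At 1.5-fold, members higher and lower numbered 7 and 1 for exercise in tumor-free mice (17.5% and 20.4% of all genes), 21 and 7 for tumor in sedentary mice (30.6% and 33.7%), 5 and 14 for exercise in tumor-bearing mice (25.2% and 24.3%), and 13 and 2 for tumor in exercised mice (22.9% and 26.2%). At 4-fold they numbered 4 and 0 for tumor in sedentary mice (9.39% and 12.1%), 0 and 0 for exercise in tumor-bearing mice (6.88% and 7.32%), and 0 higher for tumor in exercised mice (6.29%). A minimum of 100, chosen after seeing the data, left 1 higher member for exercise in tumor-bearing mice. The fold thresholds and minimums differ by construction; for the other shifts the cause was not tested. The depth limits Atg4c and Atg4a most, and no interval covers the spread between mice.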
